A study of Macaca mulatta with 24 samples.

Results

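Glycolysis enzymes are described here in the blood of irradiated rhesus macaques (Macaca mulatta). The set held 10 genes of the pathway (HK1, HK2, HK3, PFKFB3, PFKL, ALDOA, PGK1, ENO1, LDHA and LDHB), taken by name from the gene names in the scanner output of the arrays, out of 15268 named genes. They were measured by 28 probes, of which 27 were bright enough to be tested, and all 10 genes had at least 1 tested probe. Whole blood was drawn from male and female animals before irradiation and on days 3, 5 and 7 after a single total body dose of 4 Gy, and globin transcripts were removed from the RNA before it was hybridised to one-colour rhesus arrays. The groups were pre-irradiation (0 Gy, 7 arrays), day 3 (4 arrays), day 5 (6 arrays) and day 7 (7 arrays), and a replicate number was taken to mark the same animal in every group. No genotype or age was given in the labels. The control was the earlier blood of the same irradiated animals, so irradiation, repeated blood draws and time cannot be told apart.

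Glycolysis turns glucose into pyruvate and yields ATP without oxygen. Mature red blood cells have no mitochondria and live on it alone, neutrophils draw most of their energy from it, and lymphocytes raise it when they are activated. The hexokinases trap glucose in the cell, phosphofructokinase commits it to the pathway, the later enzymes harvest ATP, and lactate dehydrogenase passes pyruvate to lactate and back.

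Levels are given as normalised log2 signal, on which a difference of 1 is a 2-fold ratio, and each gene is given by its brightest probe. A gene was called changed at an adjusted p under 0.005 in limma with Benjamini-Hochberg adjustment over all probes tested. Levels of different probes were not set against each other, except relative to the pre-irradiation mean (HK3 with HK1, LDHA with LDHB). ALDOA, PGK1, ENO1, LDHA, LDHB and GAPDH have processed copies elsewhere in primate genomes, and signal of a copy with the letters of the probe cannot be told apart from that of the gene.

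The sequences below show what was hybridised for the genes on which the results turn. Most of these probes lie across a splice junction or belong to a gene with close copies, so the letters decide which transcript is read. Positions are on the rheMac2 build, as the scanner output gave them. All 28 probes were 60 bases long, and 7 of them spanned more of the genome than their length, since they cross an intron. The first sequence is the second HK3 probe, which crosses an intron and moved like the brightest one.
HK3, chr6:173374151-173374366, minus strand: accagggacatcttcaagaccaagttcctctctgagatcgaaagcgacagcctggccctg
The next sequences are 4 PFKFB3 probes, each across an intron of the plus strand and each designed on a different transcript. Probes are numbered from the brightest of a gene down. Capitals mark 10 bases that PFKFB3 probes 3 and 5 share, after which their sequences differ.
PFKFB3 probe 1, chr9:6507937-6510043: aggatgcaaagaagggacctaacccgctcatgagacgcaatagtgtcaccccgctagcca
PFKFB3 probe 2, chr9:6507892-6516962: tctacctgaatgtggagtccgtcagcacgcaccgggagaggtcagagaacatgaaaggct
PFKFB3 probe 3, chr9:6500885-6503328: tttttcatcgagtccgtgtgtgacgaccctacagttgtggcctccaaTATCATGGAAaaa
PFKFB3 probe 5, chr9:6500932-6503378: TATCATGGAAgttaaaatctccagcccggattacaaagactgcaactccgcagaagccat
A PGK1 probe is shown because its listed position is on an autosome, although the other PGK1 probes were placed on the X chromosome.
PGK1 probe 3, chr19:12234035-12234094, plus strand: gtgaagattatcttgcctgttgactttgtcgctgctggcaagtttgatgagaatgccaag
The last pair are probes of both lactate dehydrogenase subunits, whose levels moved apart after irradiation.
LDHA probe 3, chr14:53485647-53485706, minus strand: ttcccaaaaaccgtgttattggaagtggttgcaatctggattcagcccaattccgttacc
LDHB probe 3, chr11:21985469-21985528, minus strand: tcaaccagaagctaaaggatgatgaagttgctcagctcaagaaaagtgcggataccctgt

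Between 48.3 and 61.2% of probes were well above background on each array, and arrays correlated with each other at 0.897 to 0.978 over the tested probes. The arrays were scanned in 2 sessions. Session 1 held 6 pre-irradiation and 6 day 7 arrays, and session 2 held all day 3 and day 5 arrays with 1 array each of the pre-irradiation and day 7 groups, both of replicate 5. A difference of day 3 or day 5 from pre-irradiation therefore rests on that 1 pre-irradiation array once the session is taken into account. The labelled tissue was borne out by its markers, since all tested markers of neutrophils (10), T cells (10), monocytes (6) and NK cells (7) were well above background on every array. Among the tested markers, all 6 of B cells were lower on each day, 8, 10 and 8 of 10 erythroid markers were lower on days 3, 5 and 7, and 7, 1 and 0 of 7 platelet markers were higher. At an unadjusted p under 0.05 in limma, 5 platelet markers were higher on day 5, and 1 was higher and 1 lower on day 7. In whole blood, fewer cells of a type and less RNA per cell cannot be told apart.

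Of the 10 enzymes 3, 3 and 1 were called on days 3, 5 and 7, and they moved in both directions. HK3, the hexokinase of white blood cells, rose 5.10- to 6.53-fold and was called on every day. LDHB, the lactate dehydrogenase subunit that prevails in oxidative tissues, fell to 0.478 and 0.514 of its former level on days 3 and 5. HK1 was called higher on day 3 and PFKFB3 on day 5, and neither was called between the irradiated days. PFKFB3 changed by 1.42, 1.57 and 1.45 on days 3, 5 and 7, and its probes 2 and 3 were called on each. HK2, PFKL, ALDOA, PGK1, ENO1 and LDHA had no call by the brightest probe, although quantile normalization called ENO1 and LDHA on day 7. The second probe was called for ALDOA on day 3 and for HK2 on day 5. Further enzymes of the middle steps, among them PFKP, GAPDH and BPGM, were called and are given below.

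On day 3, 3 of 10 genes were called, HK1 and HK3 higher and LDHB lower, and 13.5% of all named genes were called in that comparison. On day 5, 3 of 10 were called, HK3 and PFKFB3 higher and LDHB lower, against 15.4% of all named genes. On day 7, HK3 alone was called, against 9.88% of all named genes. The later arrays did not overlap the pre-irradiation arrays for 3, 2 and 1 of the 10 genes on days 3, 5 and 7, against 21.0%, 13.3% and 8.03% of all named genes, counted in either direction. The median change of the 10 genes was 0.51, 0.30 and 0.29 on the log2 scale on days 3, 5 and 7, with −0.0060, −0.0082 and −0.013 over all named genes, and 9, 9 and 8 of the 10 changes were above 0. At an unadjusted p under 0.05 in limma, 6, 5 and 4 of the 10 passed. The share of all named genes at that rule was not counted, here or for any gene list. That share was large, since HK2 on day 3 had an unadjusted limma p of 0.0492 and an adjusted p of 0.106. For ENO1 on day 7 these were 0.0496 and 0.126 in limma. Such counts are therefore not read as an excess over all genes. The 3 comparisons share the pre-irradiation arrays. Counted over any tested probe, 5, 4 and 2 of the genes were called, against 16.6%, 19.2% and 12.3% of all named genes by the same rule, with PFKFB3 and ALDOA added on day 3, HK2 on day 5 and PFKFB3 on day 7. A gene with more probes has more chances under this rule, the 10 genes had 27 tested probes, and the shares were not matched for that. With normexp background correction of the spots, in place of the processed signal, HK3 on day 7 was the only one of the 7 calls that was kept.

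**Figure D1:**
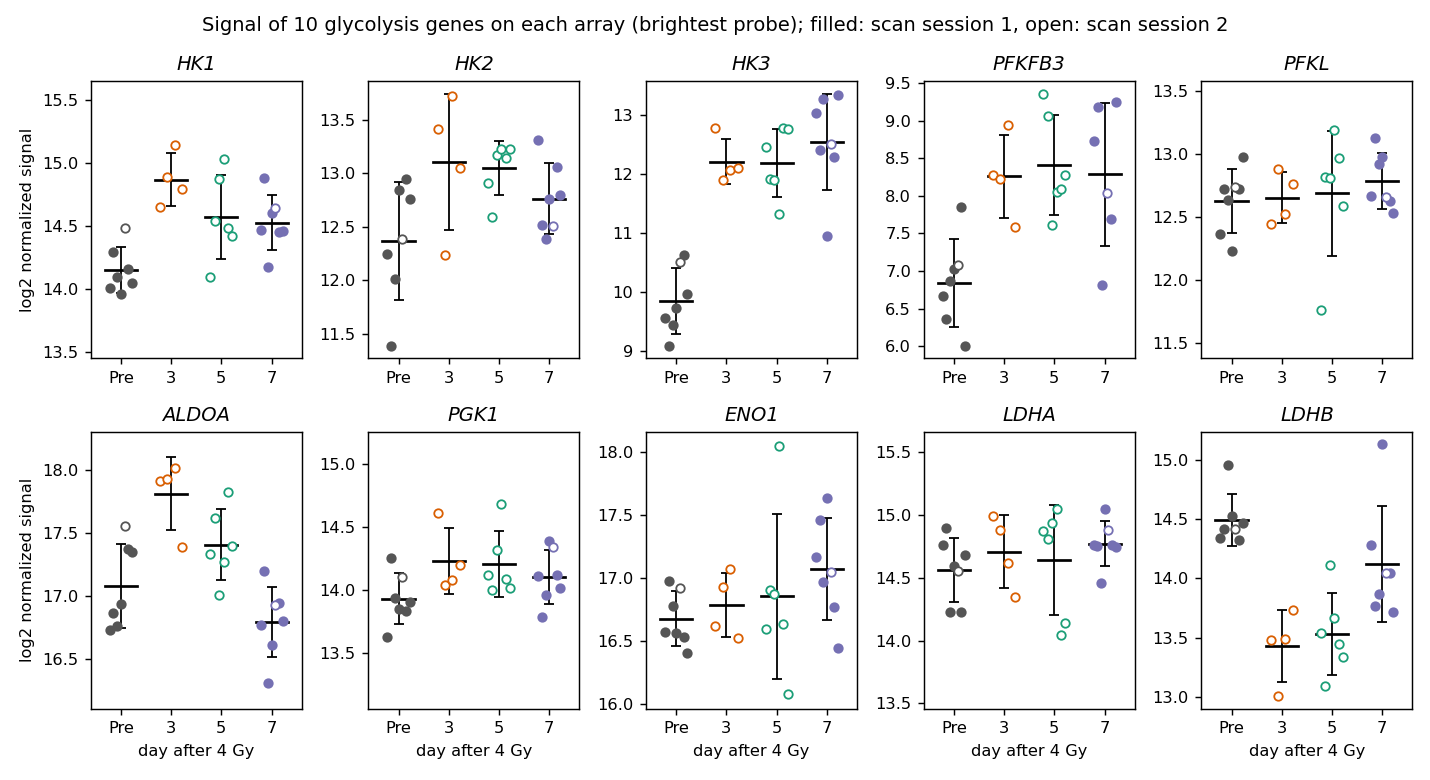
Normalised log2 signal of the brightest probe of each of the 10 genes (vertical axes, each with its own range) on every array before and 3, 5 and 7 days after 4 Gy, with the group mean and SD as bars. HK3 lay above every pre-irradiation array on all later arrays, and LDHB lay below every pre-irradiation array on all day 3 and day 5 arrays.

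**Figure D2:**
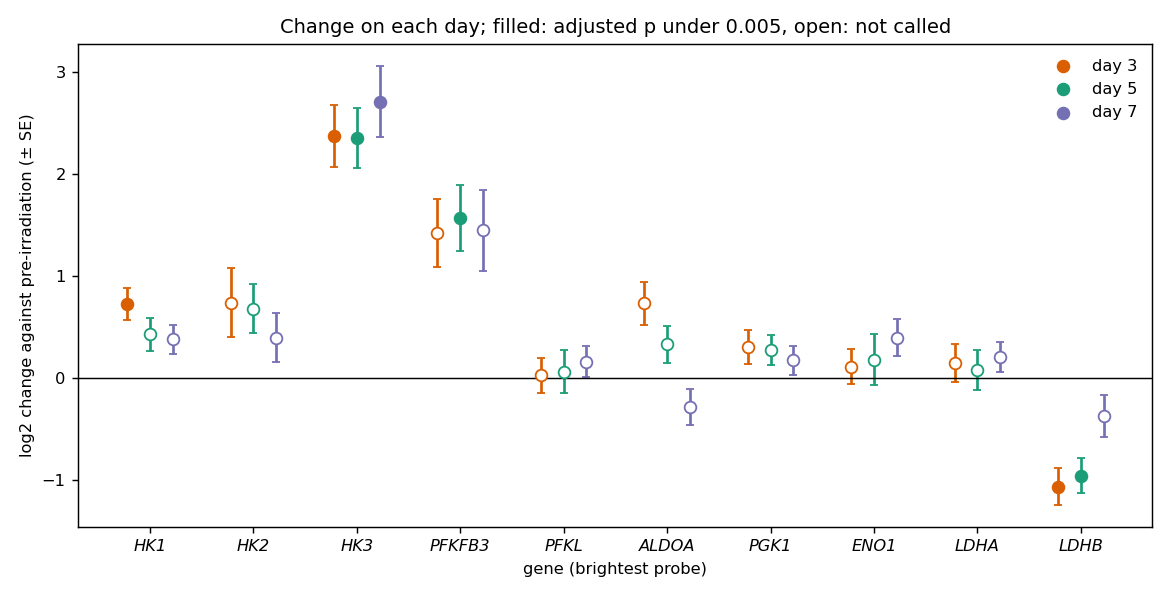
Log2 change of the brightest probe against pre-irradiation (vertical axis, with SE) for each gene and day, filled where the adjusted p was under 0.005. HK3 stood at 2.37, 2.35 and 2.71, LDHB at −1.07, −0.96 and −0.37, and the other genes had 2 filled points in all.

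Hexokinases phosphorylate glucose, the entry step. HK3 ran from 9.09 to 10.63 before irradiation, with a median of 9.73. It was 12.78, 11.91, 12.08 and 12.10 on the day 3 arrays (replicates 1, 2, 4 and 7), 11.33 to 12.79 on day 5 (median 12.19) and 10.96 to 13.35 on day 7 (median 12.52). No array after irradiation overlapped the earlier ones, and the lowest of them was day 7 replicate 4. The share of all named genes with every array above the pre-irradiation arrays was 8.96% on day 3, 4.97% on day 5 and 2.06% on day 7.

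The log2 change of HK3 was 2.37 ± 0.30 (SE) on day 3, 5.18-fold (n = 4 against 7, limma adjusted p = 0.000300). It was 2.35 ± 0.30 on day 5, 5.10-fold (n = 6 against 7, limma adjusted p = 6.16e-05), and 2.71 ± 0.35 on day 7, 6.53-fold (n = 7 against 7, limma adjusted p = 7.47e-05). HK3 was higher in 4 of 4, 6 of 6 and 7 of 7 animals with both samples. Its second probe, shown above, gave 2.47, 2.37 and 2.70, all called. With the scan session as a block the change was 1.71 on day 3 (limma adjusted p = 0.0873) and 1.68 on day 5 (limma adjusted p = 0.0956), both no longer called, and the single pre-irradiation array of session 2 stood at 10.51. With normexp it was 1.88 on day 3 (limma adjusted p = 0.0104) and 1.44 on day 5 (limma adjusted p = 0.0383). Within session 1 the day 7 change was 2.82, 6 arrays against 6 (limma adjusted p = 0.000348).

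Of 10 tested markers of neutrophils, which carry HK3, 2 were called higher on each day, against the shares of all named genes given above. Of these markers 8, 8 and 5 were higher at an unadjusted p under 0.05 in limma, for which no share was counted. The log2 of their summed signal, relative to the pre-irradiation mean, ran from −0.61 to 0.48 before irradiation, 0.33 to 1.66 on day 3, 0.40 to 1.31 on day 5 and 0.10 to 1.53 on day 7. The list's median change was 0.98, 1.02 and 0.66. None of the 10 was at background on any array, and FCGR3B was not analysed here. The monocyte list had 1, 1 and 0 of 6 tested markers called higher, with a median change of 0.94, 0.63 and 0.45. At an unadjusted p under 0.05 in limma, 5, 3 and 3 were higher, and 1 was lower, on day 7. The part of either cell type in the HK3 result was not tested.

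HK1, the housekeeping hexokinase and the main form of red blood cells, ran from 13.95 to 14.48 before irradiation (median 14.09). It was 14.65, 14.88, 15.14 and 14.79 on the day 3 arrays, 14.09 to 15.03 on day 5 (median 14.51) and 14.17 to 14.88 on day 7 (median 14.46). All day 3 arrays lay above all pre-irradiation arrays, while the later days overlapped with them. The day 3 change was 0.72 ± 0.16 (SE, n = 4 against 7), 1.65-fold, at a limma adjusted p of 0.00473. The changes of 0.43 on day 5 and 0.38 on day 7 were not called (limma adjusted p = 0.0553 and 0.0571), although all 6 and all 7 animals were higher. With quantile normalization the day 7 change was 0.79 and called (limma adjusted p = 0.00109).

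The HK1 call lay close to the threshold. With the animal as a replicate block the change was 0.79 and lost the call (limma adjusted p = 0.0294), and with the session as a block it was 0.38 (limma adjusted p = 0.428). Without any 1 of the arrays other than pre-irradiation replicate 5, the only session 2 array before irradiation and the highest of its group, the call was lost too. The change then ran from 0.63 to 0.79.

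HK2, the inducible hexokinase of muscle and of dividing cells, differed between its probes. The brightest ran from 11.39 to 12.95 before irradiation, was 13.41, 12.24, 13.72 and 13.05 on day 3, and ran from 12.59 to 13.23 on day 5 and 12.39 to 13.31 on day 7. These ranges overlapped on every day, and changes of 0.74, 0.68 and 0.39 were not called. The second probe lies upstream of it at chr13:75135658-75135717 on the plus strand. It lay above every pre-irradiation array on all 4 day 3 and all 6 day 5 arrays. Its change was 1.48 ± 0.39 (SE, n = 4 against 7) on day 3, not called (limma adjusted p = 0.0119), and 1.39 ± 0.27 (SE, n = 6 against 7) on day 5, 2.62-fold, called (limma adjusted p = 0.00154). On day 7 it was 0.41 (limma adjusted p = 0.308).

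HK3 also parted from HK1. By itself HK3 lay above every pre-irradiation array on all later arrays, and no share was counted for other pairs of genes. The log2 difference of HK3 from HK1, set to 0 at the pre-irradiation mean, ran from −0.90 to 0.77 before irradiation. It was 1.24 to 2.44 on day 3, 0.60 to 2.67 on day 5 and 0.66 to 3.40 on day 7, above every pre-irradiation array on 4 of 4, 5 of 6 and 6 of 7 arrays. This is a description of 1 probe each, with no test.

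PFKFB3 makes the sugar bisphosphate that switches phosphofructokinase on. Its brightest probe ran from 6.01 to 7.85 before irradiation (median 6.87). It was 8.28, 8.23, 8.94 and 7.59 on the day 3 arrays, 7.61 to 9.36 on day 5 (median 8.18) and 6.82 to 9.25 on 6 of the 7 day 7 arrays (median 8.38), since the spot of day 7 replicate 3 was marked unreliable by the scanner software. The groups overlapped on each day by a single later array or 2, and pre-irradiation replicate 6 was the highest of its group.

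On day 5 the PFKFB3 change was 1.57 ± 0.32 (SE, n = 6 against 7), 2.97-fold, and was called (limma adjusted p = 0.00209). All 6 animals were higher. It was not called with the animal as a replicate block (1.61, limma adjusted p = 0.00990) or with the session as a block (1.32, limma adjusted p = 0.252), and with normexp it was 0.79 (limma adjusted p = 0.0526). The call was also lost without pre-irradiation replicate 2 (1.49), day 5 replicate 1 (1.38) or day 5 replicate 2 (1.44).

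On day 3 the change was of similar size, 1.42 ± 0.33 (SE, n = 4 against 7), and was not called (limma adjusted p = 0.00711). All 4 animals were higher. With the replicate block it was 1.74 and called (limma adjusted p = 0.00348), with normexp it was 0.69 (limma adjusted p = 0.207) and with the session as a block 1.17 (limma adjusted p = 0.300). Of 11 fits without 1 array, the 1 without pre-irradiation replicate 6 called it (1.59). On day 7 it was 1.45 ± 0.39 (SE, n = 6 against 7), not called (limma adjusted p = 0.0149), with 4 of 6 animals higher. It was called under none of 12 other settings and in 1 of 14 fits without 1 array, that without day 7 replicate 4, the lowest array of that day (1.74, limma adjusted p = 0.00246).

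The other tested PFKFB3 probes, set on different transcripts, gave changes in the same direction. Probe 2 gave 1.76, 1.96 and 1.70 and probe 3 gave 1.81, 1.82 and 1.71 on days 3, 5 and 7, all called. Since 1 of 7 pre-irradiation arrays was well above background on probe 3, and all later arrays were, its changes rest on a pre-irradiation level near background. Probe 5 was well above background on no pre-irradiation array and on 6 of 7 day 7 arrays, where it was at least 3.74-fold higher (limma adjusted p = 0.00138). On days 3 and 5 it was not called (limma adjusted p = 0.0215 and 0.00976). Probe 4 had changes of 1.27, 1.14 and 1.17, not called (limma adjusted p = 0.0783, 0.0629 and 0.0438), and probe 6 was too dim to be tested.

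PFKL, the liver-type subunit of phosphofructokinase itself, ran from 12.23 to 12.98 before irradiation. It was 12.45, 12.89, 12.52 and 12.76 on day 3, 11.77 to 13.19 on day 5 and 12.54 to 13.13 on day 7. The groups overlapped, and 1 day 5 array lay above and 1 below all pre-irradiation arrays. The probe had changes of 0.024 ± 0.17, 0.062 ± 0.21 and 0.16 ± 0.15 (SE) that were not called (limma adjusted p = 0.925, 0.850 and 0.467). Its second probe, which crosses an intron, lay above every pre-irradiation array on all 6 day 5 arrays, with a change of 0.48 ± 0.17 (SE, n = 6 against 7) that was not called (limma adjusted p = 0.0387).

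**Figure D3:**
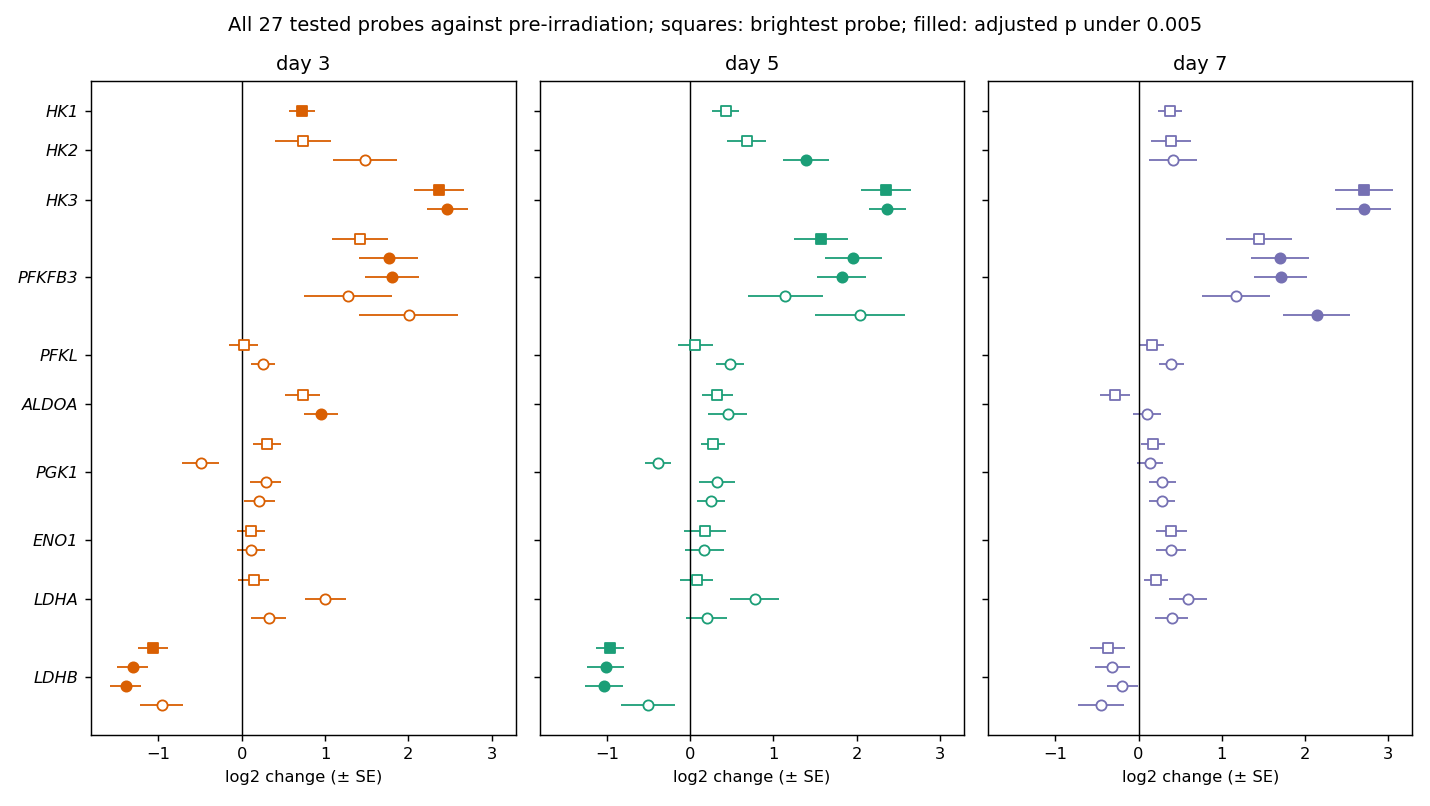
Log2 change against pre-irradiation (horizontal axis, with SE) of each of the 27 tested probes on days 3, 5 and 7, grouped by gene, squares for the brightest probe and filled where the adjusted p was under 0.005. Of the 27 probes, 6 rose and 3 fell on day 3, 6 rose and 3 fell on day 5, and 5 rose on day 7. Of all probes tested, 13.5%, 16.7% and 10.9% were called on these days.

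ALDOA splits fructose bisphosphate into triose phosphates. Before irradiation it ran from 16.73 to 17.56 (median 16.94). It was 17.92, 17.93, 18.02 and 17.38 on the day 3 arrays, 17.01 to 17.82 on day 5 (median 17.36) and 16.31 to 17.20 on day 7 (median 16.80). It was thus highest on day 3 apart from replicate 7, and lowest on day 7 with this scaling, with all groups touching the pre-irradiation range. The changes of 0.73 ± 0.21, 0.33 ± 0.18 and −0.29 ± 0.18 (SE) were not called (limma adjusted p = 0.0186, 0.180 and 0.254). On day 7 quantile normalization turned the change to 0.55 (limma adjusted p = 0.0294). The second probe gave 0.95 ± 0.20 (SE, n = 4 against 7) on day 3 and was called (limma adjusted p = 0.00449), and 0.45 and 0.097 on days 5 and 7, not called.

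Platelet markers also peaked on day 3. The log2 of their summed signal, relative to the pre-irradiation mean, ran from −0.89 to 0.58 before irradiation, 2.19 to 2.91 on day 3, 0.34 to 0.96 on day 5 and −1.22 to 0.53 on day 7. Of the 7 tested markers, GP1BA and ITGB3 were at background on every pre-irradiation array and GP6 was not analysed here. Their part in the ALDOA values was not tested.

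PGK1, the enzyme of the first ATP-yielding step, ran from 13.63 to 14.26 before irradiation, was 14.61, 14.04, 14.08 and 14.20 on day 3, and ran from 14.01 to 14.69 on day 5 and 13.79 to 14.39 on day 7. The groups overlapped, and the changes of 0.30, 0.27 and 0.17 were not called. The X-placed probe near its end gave −0.50, −0.39 and 0.14, opposite in sign on days 3 and 5 and not called either. The autosome-placed probe gave 0.29, 0.32 and 0.29. The lowest limma adjusted p of the 4 PGK1 probes against pre-irradiation was 0.0719, so that no PGK1 probe was called on any day.

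ENO1, the enolase of most tissues, which makes phosphoenolpyruvate, ran from 16.40 to 16.97 before irradiation. It was 16.62, 16.92, 17.07 and 16.52 on day 3, 16.08 to 18.04 on day 5 and 16.44 to 17.63 on day 7. The day 5 arrays spread the most, with replicate 7 lowest and replicate 4 highest. The changes were 0.11 ± 0.17, 0.18 ± 0.25 and 0.39 ± 0.18 (SE), with none called, although all 7 animals were higher on day 7 (limma adjusted p = 0.126). With quantile normalization the day 7 change was 1.21 and called (limma adjusted p = 0.000252).

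Lactate dehydrogenase is built from LDHA and LDHB subunits. LDHA-rich enzyme is known for turning pyruvate to lactate and LDHB-rich enzyme for the reverse. LDHB ran from 14.33 to 14.96 before irradiation (median 14.42). It was 13.48, 13.01, 13.49 and 13.74 on the day 3 arrays, 13.10 to 14.12 on day 5 (median 13.50) and 13.71 to 15.13 on day 7 (median 14.05). All day 3 and day 5 arrays lay below all pre-irradiation arrays, while on day 7, 6 arrays lay below all of them and replicate 4 above all of them. The same held for 1328 of 11023 named genes on day 3 and for 915 of 11026 on day 5.

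LDHB fell by 1.07 on the log2 scale on day 3 (SE 0.18, n = 4 against 7), to 0.478 of the pre-irradiation level (limma adjusted p = 0.00125). On day 5 it fell by 0.96 (SE 0.17, n = 6 against 7), to 0.514 of that level (limma adjusted p = 0.000784). It was lower in 4 of 4 and 6 of 6 animals. On day 7 the change was −0.37 ± 0.21 (SE, n = 7 against 7), not called (limma adjusted p = 0.196), with 6 of 7 animals lower.

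The day 3 change of LDHB moved little between fits, and the call did. The day 5 change moved more, to −0.72 without scaling between arrays and −1.54 with normexp, neither called (limma adjusted p = 0.289 and 0.0590). On day 3 the replicate block gave −1.01 (limma adjusted p = 0.0157), and the session block gave −0.99 (limma adjusted p = 0.117). On day 5 the session block gave −0.88 (limma adjusted p = 0.146), and the single pre-irradiation array of session 2 stood at the median of its group. Probes 2 and 3 were called on both days, at −1.31 and −1.39 on day 3 and −1.01 and −1.04 on day 5. Probe 4, of which the scanner output placed only 20 bases on the genome, gave −0.96 and −0.50 and was not called.

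Of 10 tested T-cell markers, 4, 2 and 0 were called lower on days 3, 5 and 7, against 13.5%, 15.4% and 9.88% of all named genes called. At an unadjusted p under 0.05 in limma, 6, 5 and 3 of the markers were lower, and their median change was −0.81, −0.40 and −0.043. The log2 of their summed signal, relative to the pre-irradiation mean, ran from −0.60 to 0.64 before irradiation, −1.61 to −0.95 on day 3, −1.17 to −0.58 on day 5 and −0.99 to −0.063 on day 7. The summed signal of the 6 tested B-cell markers was −4.57 to −3.05 on the same scale on every later array. No T-cell marker was at background on any array, and CD3E was not analysed here. The part of these cells in the LDHB result was not tested.

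LDHA ran from 14.23 to 14.89 before irradiation, was 14.99, 14.87, 14.62 and 14.34 on day 3, and ran from 14.04 to 15.04 on day 5 and 14.45 to 15.04 on day 7. The groups overlapped, and on day 5, 2 arrays lay above and 2 below all pre-irradiation arrays. The changes of 0.14 ± 0.19, 0.077 ± 0.20 and 0.21 ± 0.15 (SE) were not called (limma adjusted p = 0.57, 0.792 and 0.312). With quantile normalization the day 7 change was 0.69 and called (limma adjusted p = 0.00156). The second LDHA probe, which the scanner output placed on chromosome 1 and not on chromosome 14 with the others, gave 1.004, 0.78 and 0.59 and was not called (limma adjusted p = 0.00867, 0.0525 and 0.0647). All 4 of its day 3 arrays lay above all pre-irradiation arrays.

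The log2 difference between LDHA and LDHB, set to 0 at the pre-irradiation mean, shows their separation on each array. It ran from −0.80 to 0.41 before irradiation, 0.54 to 1.80 on day 3, 0.52 to 1.64 on day 5 and −0.16 to 0.96 on day 7. LDHB alone already lay below every pre-irradiation array on days 3 and 5, and no share was counted for other pairs of genes. All day 3 and day 5 arrays and 5 of 7 day 7 arrays lay above every pre-irradiation array in the difference. This is a description of 1 probe each, with no test.

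Between the irradiated days none of the 10 genes was called, and few genes were at all. The share of all named genes called was 0.0363% for day 5 against day 3, 1.61% for day 7 against day 3 and 0.00907% for day 7 against day 5. At an unadjusted p under 0.05 in limma, 0, 2 and 2 of the 10 genes passed, ALDOA and LDHB in both comparisons with day 7. The share of all named genes at that rule was not counted. Many others passed it, since the unadjusted limma p of LDHB was 0.0257 and 0.0272, with adjusted p of 0.101 and 0.183. ALDOA was lower on day 7 than on day 3 by −1.02 ± 0.21 (SE, n = 7 against 4, limma adjusted p = 0.00984), lower in 4 of 4 animals, and all day 7 arrays lay below all day 3 arrays, as for 7.19% of named genes. In a fit of all 4 groups together this difference was called (limma adjusted p = 0.00110), and it was −0.38 with quantile normalization (limma adjusted p = 0.174). Since session 2 held 1 day 7 array, comparisons with day 7 rest on that array once the session is taken into account, and with the session as a block it was −0.89 (limma adjusted p = 0.553). LDHB was higher on day 7 than on day 3 by 0.69 ± 0.27 (SE, limma adjusted p = 0.101) and than on day 5 by 0.59 ± 0.24 (SE, limma adjusted p = 0.183). Its probes 2 and 3 gave 0.995 and 1.20 for day 7 against day 3, not called (limma adjusted p = 0.0307 and 0.00783). The second HK2 probe gave −0.98 for day 7 against day 5, not called (limma adjusted p = 0.0251). HK3 differed between the days by −0.022 to 0.36.

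The remaining enzymes of the pathway were read from a further list of 31 genes, of which 21 were tested. Here and in the lists that follow there were 38 calls, of which the session as a block kept 12, BPGM on day 5 and those on day 7, and normexp kept 5. Within session 1 alone, 7 of the 11 day 7 calls were kept and 4 were not. On day 3, 4 rose and 3 fell, on day 5, 3 rose and 2 fell, and on day 7, 3 rose and 2 fell, against 13.5%, 15.4% and 9.88% of all named genes called in either direction, with a median change of 0.76, 0.47 and 0.14. BPGM, which makes the red-cell regulator bisphosphoglycerate, had the largest change. It fell on every day, with log2 changes of −4.06, −5.24 and −4.37 (limma adjusted p = 2.06e-05, 4.66e-08 and 4.85e-05), and every later array lay below every earlier one. With the session as a block the day 3 change was −3.92 and was not called (limma adjusted p = 0.0115). The log2 of the summed signal of erythroid markers was −2.43 to −1.23, −4.51 to −3.84 and −6.40 to −0.98 relative to their pre-irradiation mean on the same days, and CA1, SLC4A1 and EPB42 reached background on some or all later arrays. Their part in the BPGM result was not tested.

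PFKFB4, a relative of PFKFB3, rose by 2.01 on day 5 and 1.95 on day 7 (limma adjusted p = 0.00214 and 0.00250), with 1 of 7 pre-irradiation arrays well above background. GAPDHS, the sperm form of glyceraldehyde phosphate dehydrogenase, fell by 2.59 on day 3 (limma adjusted p = 0.00487). ENO2, the neuronal enolase, fell by 1.55 on day 3 (limma adjusted p = 0.00437). With the replicate block PFKFB4 had a limma adjusted p of 0.00589 and 0.00778 and ENO2 one of 0.0130 (−1.15), so that these calls were lost. With normexp PFKFB4 was 0.81 and 0.49 (limma adjusted p = 0.235 and 0.502) and GAPDHS −0.90 (limma adjusted p = 0.203). With the session as a block GAPDHS was −3.80 (limma adjusted p = 0.0578). When 1 array was left out in turn, the call was kept in 2 of 11 fits for GAPDHS and ENO2 and in 8 of 13 and 5 of 14 for PFKFB4.

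The other called genes of this list were named after their values were seen. PKM, the enzyme that makes pyruvate, rose by 1.05, 1.30 and 1.32 (limma adjusted p = 0.00125, 0.000215 and 0.000229), and all later arrays lay above all earlier ones. TIGAR, a phosphatase that opposes PFKFB3 and a target of p53, rose by 0.93 on day 5 and 1.44 on day 7. On day 3, GAPDH rose by 0.93, PGAM1 by 0.93 and PFKP, the platelet-type phosphofructokinase subunit, by 0.96. PFKM, the muscle-type subunit, fell by 0.91 on day 7, and ALDOC, the brain aldolase, fell by 1.01 on day 5. The replicate block ended the calls of PKM, GAPDH, PGAM1 and PFKP on day 3 (limma adjusted p = 0.0158, 0.0254, 0.0515 and 0.0231), of TIGAR on day 5 (limma adjusted p = 0.00543) and of PFKM on day 7 (limma adjusted p = 0.00638). With normexp PKM was 0.71 on day 5 (limma adjusted p = 0.354) and PFKM −0.39 (limma adjusted p = 0.488), and with the session as a block TIGAR was 1.70 on day 5 (limma adjusted p = 0.00703). The call was kept in 2 of 11 fits without 1 array for GAPDH and PGAM1, 7 of 13 for TIGAR on day 5 and 7 of 14 for PFKM.

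**Figure D4:**
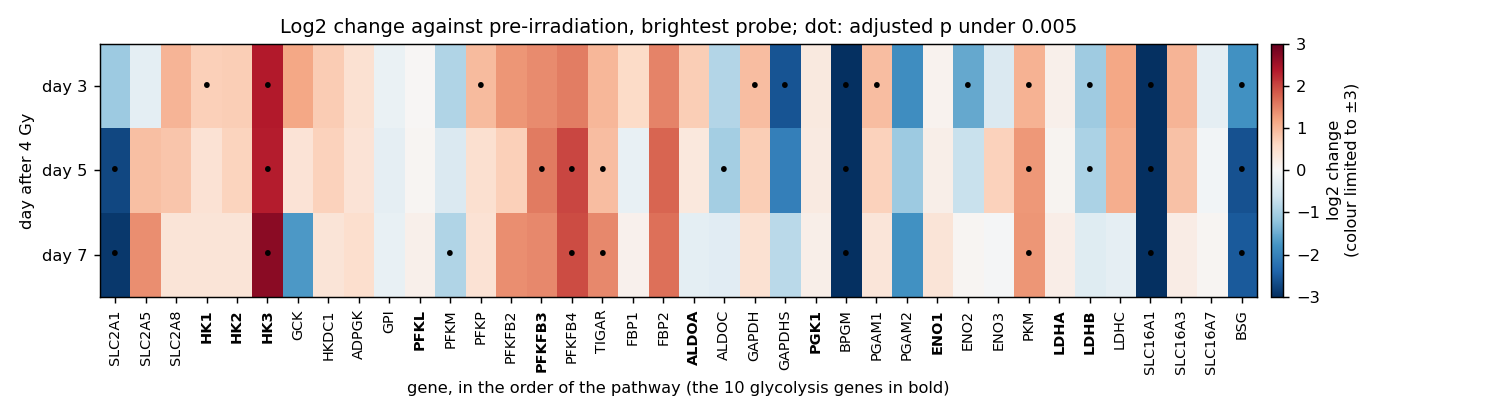
Log2 change against pre-irradiation (colour, limited to 3 in either direction) of 38 tested genes from glucose entry to lactate exit (horizontal axis, in pathway order, the 10 genes in bold) on days 3, 5 and 7, with a dot where the adjusted p was under 0.005. BPGM and SLC16A1 were below −3 on all days, HK3 and PKM were above 0 with a dot on all days, and LDHA had no dot beside LDHB with a dot on days 3 and 5.

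Among carriers of glucose and lactate, 3 genes fell. Of 7 tested transport genes 2, 3 and 3 were lower and none was higher on days 3, 5 and 7, against 13.5%, 15.4% and 9.88% of all named genes called, with 2, 2 and 0 higher at an unadjusted p under 0.05 in limma. SLC16A1, a lactate carrier of the plasma membrane, fell on every day, with changes of −3.70, −4.59 and −3.23. Its partner BSG fell as often, with changes of −1.83, −2.61 and −2.52. SLC2A1, the glucose carrier of red cells, fell on days 5 and 7, with changes of −2.72 and −2.89, when 1 array on each day was still well above background. With normexp these were −0.19 and −0.998 (limma adjusted p = 0.763 and 0.237), and the day 5 change of SLC16A1 was −2.37 (limma adjusted p = 0.00746). With the replicate block the day 3 calls of SLC16A1 and BSG were lost (−4.30 and −2.16, limma adjusted p = 0.00517 and 0.0106), and without 1 array that of BSG was kept in 3 of 11 fits. Erythroid markers, given above beside BPGM, fell on the same days, and their part in these results was not tested.

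Of 12 tested genes that carry pyruvate into mitochondria or pass it on there, 2 fell on day 3, 1 fell on day 5, and 1 rose and 1 fell on day 7, near the 13.5%, 15.4% and 9.88% called among all named genes. MPC2, a subunit of the mitochondrial pyruvate carrier, fell on every day, with changes of −1.22, −1.21 and −1.12. PDK3, a kinase that switches pyruvate dehydrogenase off, fell by 0.89 on day 3, and PDHX, a structural part of pyruvate dehydrogenase, rose by 0.65 on day 7. With the replicate block MPC2 on day 3 (−1.41, limma adjusted p = 0.00807), PDK3 (−0.84, limma adjusted p = 0.0398) and PDHX (0.65, limma adjusted p = 0.0207) were not called. With normexp PDK3 was −0.19 (limma adjusted p = 0.896). Without 1 array the call was kept in 2 of 11 fits for MPC2 on day 3 and PDK3, in 6 of 13 for MPC2 on day 5, in 3 of 14 for MPC2 on day 7 and in 4 of 14 for PDHX.

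Of 7 tested pentose phosphate genes, TALDO1, the transaldolase, fell by 0.997 on day 7 and no other gene was called, against 13.5%, 15.4% and 9.88% of all named genes on days 3, 5 and 7. Its change was −0.15 with quantile normalization (limma adjusted p = 0.505), and the call was also lost without scaling and with normexp (−0.76 and −0.83). At an unadjusted p under 0.05 in limma, 5 were higher on day 3, and 2 were higher and 1 lower on day 5. Of 9 tested glycogen genes, PYGB, the brain-type phosphorylase, rose by 0.92 on day 3, and with the replicate block its limma adjusted p was 0.0256. It was the only call of that list, against the same shares of all named genes. At an unadjusted p under 0.05 in limma, 7, 5 and 3 of the 9 were higher on days 3, 5 and 7 and none was lower, with a median change of 0.71, 0.47 and 0.31. For both lists the share of all named genes at the unadjusted rule was not counted, and it was large, as said for the 10 enzymes.

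Of 14 tested genes of hypoxia and of the control of glycolysis, 2 rose and 1 fell on days 3 and 5, against 13.5% and 15.4% of all named genes called. None was called on day 7, when 3 were higher and 5 lower at an unadjusted p under 0.05 in limma. EPAS1, a hypoxia-inducible factor, rose by 2.42 on day 3 and 1.55 on day 5. ADM, adrenomedullin, a secreted peptide induced by hypoxia, rose by 2.30 and 2.09. MYC, a transcription factor that drives glycolytic genes in dividing cells, fell on the same days, with changes of −2.56 and −1.96, and on day 3 it was not called with the replicate block (limma adjusted p = 0.00678). With normexp EPAS1 was 2.19 and 0.97 (limma adjusted p = 0.00757 and 0.200) and ADM 1.44 and 1.25 (limma adjusted p = 0.0274 and 0.0107). With the session as a block EPAS1 was 1.65 and 0.79 (limma adjusted p = 0.0715 and 0.285) and ADM 3.41 and 3.19 (limma adjusted p = 0.0418 and 0.0140). Without 1 array the day 3 call of ADM was kept in 4 of 11 fits, and that of MYC on day 5 in 8 of 13. HIF1A was not called on any day.

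The genes most like each called member were sought among 10780 named genes by the root mean square difference of log2 signal over the 24 arrays, each gene set to its own mean. For HK3, whose own root mean square about its mean was 1.28, these were DDB2 (0.527), TRPM2 (0.563) and ITGAM (0.582). For HK1 (own 0.330) they were PCK2 (0.202), YWHAG (0.206) and FAM120A (0.210). For PFKFB3, over the 23 arrays that measured it (own 0.944), they were CDH26 (0.421), BCL6 (0.451) and GPBAR1 (0.454). For LDHB (own 0.539) they were MRPS25 (0.225), GPN1 (0.237) and MTERF3 (0.238). These are descriptions over arrays that share animals, sessions and blood composition.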

How the data were processed

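Whole-blood RNA was measured on 24 one-colour arrays. The authors deposited the scanner output, whose processed signal is an intensity on a linear scale with background subtracted, and a series matrix of log2 values normalized to the median array, which gave 4 of the 10 brightest probes and served as an alternative. The labels name Agilent Feature Extraction 10.7 and the file headers 12.0.2.2. The labels and the file headers give a rhesus array and the paper's methods a human one, and the labels give X-rays and the methods gamma rays.

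After log2 of the processed signal, spots with a non-uniform or outlier flag were dropped and saturated ones kept, repeat spots of a probe were averaged, and each array was shifted to the median array (shifts −0.87 to 2.03). The scanner output named 23054 of the 43603 probes, and 19296 stayed without a symbol. The 27138 probes well above background on at least 4 arrays were tested (27132 in comparisons with day 3), each pair of groups in its own fit, two-sided, with limma 3.58.1 in R 4.3.3 and statmod 1.5.0. Figures were drawn with Python 3.11.15 and matplotlib 3.10.9. The fit was tested on simulated data. The fold of PFKFB3 probe 5 is a bound, the day 7 mean against the mean, per pre-irradiation array, of whichever was higher, its own signal or that of the dimmest probe still well above background. Precision is limited by how many arrays there were.

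The members and all gene lists were chosen with earlier results of these data known. Every member was named. Of 6 further lists with 94 genes, at most the 4 called genes with the largest changes per list were named, except where stated. Of marker lists, counts, summed signals and markers at background were given, and for each called member the 3 most similar genes. Same-numbered arrays had the same sex in the labels, and their deviations from the group means correlated at 0.13 to 0.65 in all 31 pairs, so the numbers were taken to pair the samples.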

Additional observations from a re-analysis of the deposited data

Results flagged for a closer look

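Of 40 sets of arrays (10 genes in 4 groups), 3 held an array far from the others by Dixon's test, about as many as 1 in 20 by chance would give. ALDOA was 17.38 on day 3 replicate 7, and the next lowest day 3 array was 17.92. LDHB was 14.96 on pre-irradiation replicate 3, and the next highest array of that group was 14.53. LDHB was 15.13 on day 7 replicate 4, and the next highest was 14.28.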

How the results depend on the processing

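The counts of called enzymes moved with several choices. On day 3, 3 genes became 5 over any tested probe, 1 without scaling between arrays, 0 with normexp background and 0 with the scan session as a block. On day 5, 3 became 1, 0 and 0 under the same last 3 choices. On day 7, 1 became 2 over any tested probe and 4 with quantile normalization (HK1, HK3, ENO1 and LDHA). For day 7 against day 3, 0 became 1 (ALDOA) with all 4 groups in 1 fit. Leaving out 1 array gave 2 to 3 genes on day 3, 2 to 3 on day 5 and 1 to 2 on day 7, the 2 without day 7 replicate 4, and 0 to 0 between the days. With the replicate block the counts were 2, 2 and 1 on days 3, 5 and 7 and 0 in each comparison of days, and its changes of call are given beside the results.

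Of the 7 calls, 7 were kept with quantile normalization, with all 4 groups in 1 fit and with the slide as a random block, 6 with the 75th percentile, 6 without the filter on dim probes, 4 with the replicate block, 3 without scaling, 1 with normexp and 1 with the session block. HK3 on day 7 was kept under all 12 alternatives tried for it, and no call reversed. Of 38 calls of further genes, tried under alternatives chosen after seeing the data, 22 were kept with the replicate block, 12 with the session block and 5 with normexp, and none reversed. The cause of these losses was not tested.

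Changes without a call crossed 0 in some fits. These were PFKL on day 3 without scaling (−0.036), LDHA on day 3 with the replicate block (−0.024), PFKL (−0.083) and ENO1 (−0.14) on day 3 with the session block, and PFKL (−0.045), ALDOA (−0.15) and ENO1 (−0.067) on day 5 with it. With normexp on day 5 they were HK1 (−0.072), PFKL (−0.38), ALDOA (−0.22), PGK1 (−0.21), ENO1 (−0.27) and LDHA (−0.42). With quantile normalization on day 7 they were ALDOA (0.55) and LDHB (0.058), and ALDOA on day 7 against day 5, tried after seeing the data, was −0.61 and 0.097 with normexp. Leaving out 1 array gave −0.053 to 0.093 for PFKL on day 3, −0.039 to 0.25 for PFKL on day 5, −0.060 to 0.33 for ENO1 and −0.0035 to 0.20 for LDHA on day 5.

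Over all probes tested, 3653 were called on day 3, 751 with the replicate block, 37 with the session block, 165 with normexp and 891 without scaling. For day 7 against day 3, 347 were called, 2177 with all groups in 1 fit and 0 with the replicate block. Leaving out 1 array gave 1496 to 3490 on day 3, the lowest without day 3 replicate 4, and 24 to 313 for day 7 against day 3, the lowest without day 3 replicate 1. Without scaling the median change of all probes was 0.26 on day 5 and 0.25 on day 7, and with normexp 0.17 on day 5, so that changes there are relative to it. Dim probes limit PFKFB3 probes 3 to 6, which were well above background on at most 1 pre-irradiation array.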
